A study of Mus musculus with 9 samples.

Results

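Vasoactive mediators are the short-range signals by which the vessel wall sets its own tone. They were followed here through 10 genes of 50686 in the deposited count table: Nos3, Edn1, Ednra, Ednrb, Ece1, Ace, Ptgis, Ptgs1, Ptgs2, and Ptges. The genes were picked by symbol from the nitric oxide, endothelin, angiotensin, and prostanoid systems. RNA-Seq was performed on MC3T3-E1, a mouse osteoblast cell line, either left as control or given SB216763, which inhibits the GSK3 kinases, at 10 μM over 14 days. Untreated mouse pulmonary endothelial cells (ECs) formed the other group, and each group had 3 libraries. The time in culture of the control osteoblasts is not given in the sources used here, and the osteoblasts are a single cell line, while the ECs were obtained by flow sorting. The labels do not say whether the 3 libraries of a group came from separate cultures or animals, so the p-values measure the spread between these libraries, which may be technical. In bulk RNA, fewer cells of a type and less RNA per cell cannot be told apart.

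As background, nitric oxide made by eNOS (Nos3) relaxes smooth muscle through soluble guanylate cyclase. Endothelin-1 (Edn1) is cut from its precursor by endothelin-converting enzyme (Ece1) and constricts vessels through the receptor ETA (Ednra), while ETB (Ednrb) on endothelium releases nitric oxide and clears the peptide. Angiotensin-converting enzyme (Ace) makes angiotensin II and breaks down bradykinin. The cyclooxygenases (Ptgs1 and Ptgs2) convert arachidonic acid to prostaglandin H2, from which prostacyclin synthase (Ptgis) makes the dilator prostacyclin and microsomal prostaglandin E synthase-1 (Ptges) makes prostaglandin E2, a regulator of bone formation and resorption.

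The libraries held between 30990107 and 68946333 counts. Levels are given as CPM (reads of a gene relative to all reads of its library) after TMM normalization. On that scale 3 counts, taken as the least that a library can show, correspond to between 0.0473 and 0.104 CPM. This limit covers counting error only. All of 10 endothelial marker genes stood higher in ECs than in the controls by at least the fold threshold used below. Of all genes tested, 13.5% did. The 10 markers summed to 7069 to 7220 CPM in ECs, 3.09 to 3.79 CPM in controls, and 2.82 to 3.41 CPM after SB216763. None of the 10 was called between the osteoblast groups by edgeR at an adjusted p under 0.01, where 64.9% of genes tested were. Egfl7 alone had an unadjusted p under 0.05. Tie1, Tek, Emcn, Cldn5, and Erg, 5 of the 10, entered the test only through their level in ECs, so that higher levels there were fixed by the filter and changes between the osteoblast groups could hardly be detected. Of 8 osteoblast markers, 7 were lower after SB216763, where 32.0% of all genes tested were. The 8 summed to 43986 to 59420 CPM in controls, 8101 to 8373 CPM with SB216763, and 53.8 to 73.1 CPM in ECs. Of 6 smooth muscle and pericyte markers tested, 4 were lower (32.0% of all genes tested) and 1 higher (32.9%) after SB216763. All 7 of the list summed to 2891 to 3065 CPM in controls, 163 to 179 CPM with SB216763, and 21.1 to 22.9 CPM in ECs. Most of each sum was Acta2, at 2915, 144, and 17.0 CPM on average. In ECs 4 of the 6 were lower than in controls (37.9% of all genes tested). The other 2, Myh11 and Cnn1, were higher there (39.0%) and entered the test only through ECs. The part of the markers above in the results below was not tested. The 8 blood cell markers summed to 26.8 to 28.3 CPM in controls, 8.54 to 10.0 CPM with SB216763, and 57.3 to 59.5 CPM in ECs, with 8, 17, and 10 counts of the defining gene Ptprc over the groups. Of the 3 tested, Lyz2 and Csf1r were lower after SB216763 (32.0% of all genes tested). Cd68 was higher (32.9%), from 0.532 to 1.63 CPM on average. In ECs, Cd68 was at 46.6 CPM and made most of the sum. The 6 epithelial markers summed to at most 0.630 CPM in any library, and Epcam had 0 counts throughout.

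The promoters of 4 genes that changed with SB216763 are shown, Ptgs1, Ptgs2, and Ptges because they are steps of one synthesis and all rose, and Edn1 because it is the ligand that fell. Each is the 250 bases before the transcription start in RefSeq (GRCm38.p6), 5′ to 3′, at chr2:36230176-36230425 on the + strand for Ptgs1, chr1:150099781-150100030 on the + strand for Ptgs2, chr2:30903298-30903547 on the - strand for Ptges, and chr13:42301226-42301475 on the + strand for Edn1. Capitals mark the GC box, GGGCGG.
Ptgs1: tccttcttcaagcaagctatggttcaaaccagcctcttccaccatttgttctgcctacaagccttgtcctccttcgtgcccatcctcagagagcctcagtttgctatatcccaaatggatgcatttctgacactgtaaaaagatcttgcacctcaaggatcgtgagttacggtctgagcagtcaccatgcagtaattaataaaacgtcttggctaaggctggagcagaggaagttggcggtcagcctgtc
Ptgs2: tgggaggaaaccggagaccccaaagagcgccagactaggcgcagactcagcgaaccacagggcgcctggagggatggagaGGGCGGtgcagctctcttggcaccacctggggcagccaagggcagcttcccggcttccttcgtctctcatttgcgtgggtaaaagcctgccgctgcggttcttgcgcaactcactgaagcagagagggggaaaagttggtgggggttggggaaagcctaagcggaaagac
Ptges: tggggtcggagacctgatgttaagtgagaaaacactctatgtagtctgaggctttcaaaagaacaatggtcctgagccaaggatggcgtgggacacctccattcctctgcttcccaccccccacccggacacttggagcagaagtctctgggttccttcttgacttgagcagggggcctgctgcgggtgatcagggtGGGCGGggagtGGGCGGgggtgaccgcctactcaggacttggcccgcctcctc
Edn1: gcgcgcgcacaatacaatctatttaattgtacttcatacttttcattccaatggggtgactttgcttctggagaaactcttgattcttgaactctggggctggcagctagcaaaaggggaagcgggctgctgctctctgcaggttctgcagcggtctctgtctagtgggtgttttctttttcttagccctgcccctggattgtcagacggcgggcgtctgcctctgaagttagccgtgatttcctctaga
Promoters were matched for 8 of the 10 genes, all but Nos3 and Ptgis. The windows were searched on both strands for CTTTGAT (bound by TCF/LEF, the partners of β-catenin), TGACTCA (AP-1), TGACGT (the core of the cAMP response element), GGGCGG (the GC box), and TATAAA (the TATA box). The last of these, and the GC box, were added after the sequences had been seen. The TATA letters were in a window of Ace alone, 31 bases before the start on the opposite strand, against 12.4% of all promoter windows in the reference. The GC box stood in the Ptges window at 2 places, 53 and 42 bases before the start, and in the Ptgs2 window at 1 place, 170 bases before it. Of the 32851 promoter windows of the same length in the reference, 32.7% held a GC box. The 8 genes have 12 windows in the reference, 4 of them for Ece1 and 2 for Ace, and 5 of the 12 held a GC box, 2 of those for Ece1 and 1 for Ace. The TCF/LEF and AP-1 letters were in none of the windows of the 8 genes, against 3.21% and 4.46% of all windows, and the cAMP response element core was in that of Ednrb alone, against 6.47%. Sequence beyond either end of the windows was not searched, so absence from a window is not absence from the promoter. The G and C content was 48.0% for Ptgs1, 61.6% for Ptgs2, 59.6% for Ptges, and 50.4% for Edn1, where the median of all windows was 52.4%. GENCODE release M21 places the outer end of Ptges at 30929863 on chromosome 2, upstream of this RefSeq start, so the window lies inside that gene model.

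Between SB216763-treated and control osteoblasts, both cyclooxygenases and the prostaglandin E2 synthase Ptges rose, and endothelin-1, its converting enzyme, and prostacyclin synthase fell. By edgeR's quasi-likelihood test with an adjusted p under 0.01 as the limit, Ptges, Ptgs1, Ptgs2, and Ednra were higher, Edn1, Ptgis, and Ece1 were lower, and Nos3, Ednrb, and Ace were not called. These 7 of 10 genes stand beside 64.9% of the 15531 genes tested that were called in this comparison, 32.9% higher and 32.0% lower. A fold threshold, 2 or more on the log2 scale in either direction, was passed by 3 genes, where 9.65% of genes tested passed it: Ptges was higher (3.81% of genes tested) and Edn1 and Ptgis were lower (5.84%). All 10 genes entered the test, but Ednrb and Ace passed the filter on low counts only through their level in ECs.

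**Figure D1:**
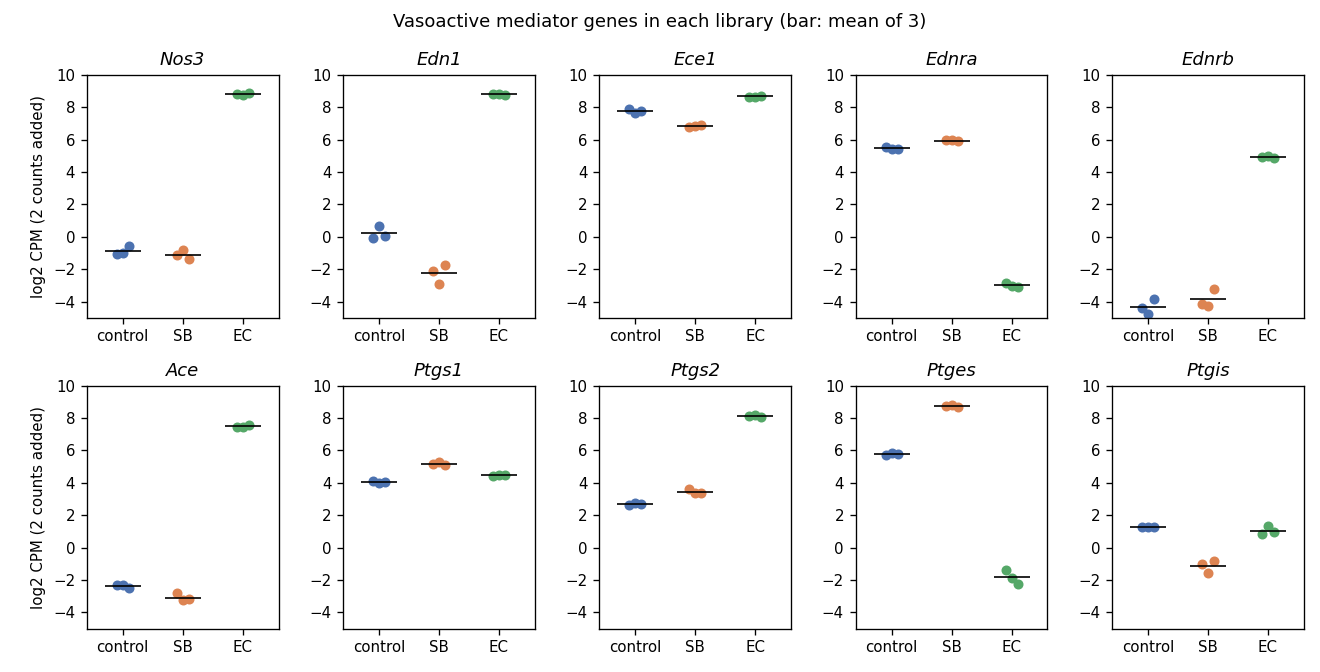
Level of each of the 10 genes in each library, as log2 CPM with 2 counts added (y axis, the same in every panel), for the control, SB216763 (SB), and EC groups, with a bar at the mean of 3 libraries. Ptges is highest in the treated osteoblasts, Nos3, Edn1, Ednrb, Ace, and Ptgs2 stand far above both osteoblast groups in ECs, and Ednra is near the bottom of the scale in ECs.

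Ptges, the inducible synthase of prostaglandin E2 (chromosome 2, 30889471 to 30929863 in GENCODE M21 on GRCm38), had the largest fold change among the 4 of the 10 genes that rose. It was at 53.2, 56.1, and 54.1 CPM in the control libraries, at 427, 449.9, and 404 CPM in the SB216763 libraries, and at 0.344, 0.213, and 0.162 CPM in the EC libraries. The 3 groups did not overlap, and the EC libraries held only 15, 7, and 7 counts. Treated osteoblasts were above controls by 2.97 on the log2 scale (standard error 0.06, adjusted p = 3.88e-16, edgeR with Benjamini-Hochberg adjustment), or 7.84-fold. ECs differed from controls by -7.79 on the log2 scale (standard error 0.12, adjusted p = 2.90e-18), and treated osteoblasts differed from ECs by 10.77 (standard error 0.11, adjusted p = 4.81e-20).

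The constitutive cyclooxygenase Ptgs1 (chromosome 2, 36230426 to 36252272) was at 17.0, 15.9, and 16.5 CPM in the controls and at 35.3, 39.2, and 34.5 CPM after SB216763. All treated libraries were above all controls and also above the EC libraries, which were at 21.3, 22.4, and 22.5 CPM. Its log2 fold change with treatment was 1.14 (standard error 0.06, adjusted p = 4.44e-11, edgeR), and treated osteoblasts were 1.65-fold above ECs (adjusted p = 6.85e-09). The inducible cyclooxygenase Ptgs2 (chromosome 1, 150100031 to 150108227) was at 6.25, 6.59, and 6.36 CPM in the controls and at 12.1, 10.4, and 10.1 CPM after SB216763. The groups did not overlap, and the difference on the log2 scale was 0.76 (standard error 0.07, adjusted p = 1.42e-07, edgeR). In ECs Ptgs2 was at 284, 289, and 265 CPM, 25.7-fold above the treated osteoblasts (adjusted p = 1.44e-18).

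The 2 cyclooxygenases were also compared within each library, per kilobase of merged exons, a ratio that does not depend on scaling between libraries. For each unit of Ptgs1 there was 0.330 ± 0.0193 of Ptgs2 in the controls, 0.255 ± 0.0323 after SB216763, and 10.8 ± 0.681 in ECs (SD, n = 3). On the log2 scale of the counts, the ratio of Ptgs2 to Ptgs1 differed by -0.38 between treated and control libraries and by 5.02 between EC and control libraries. The 2-sided exact permutation test gave p = 0.1 for each of these, or 0.12 after Benjamini-Hochberg adjustment over 6 tests of ratios, which include those of the endothelin receptors, and 3 libraries against 3 cannot give less than 0.1. Ptgs1 was therefore the higher cyclooxygenase transcript per length in every osteoblast library and Ptgs2 in every EC library.

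Ptgis, the prostacyclin synthase (chromosome 2, 167191805 to 167240604), fell, in contrast to Ptgs1, Ptgs2, and Ptges. It was at 2.43, 2.42, and 2.29 CPM in the control libraries and at 0.43, 0.287, and 0.517 CPM after SB216763, from 15, 11, and 19 counts. These groups did not overlap. The difference on the log2 scale was -2.54 (standard error 0.21, adjusted p = 2.05e-08, edgeR). ECs held 1.74, 2.41, and 1.88 CPM, which overlapped the controls (log2 fold change -0.27, standard error 0.16, adjusted p = 0.127, edgeR), so the treated osteoblasts were below both. Per kilobase of exons, Ptges was at 13.8 ± 0.376 and Ptgis at 0.927 ± 0.0296 CPM in the controls, and at 109 ± 5.86 and 0.16 ± 0.0454 CPM after treatment (SD, n = 3). In ECs the order was the reverse, with 0.061 ± 0.0238 CPM per kilobase for Ptges and 0.782 ± 0.137 for Ptgis.

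**Figure D2:**
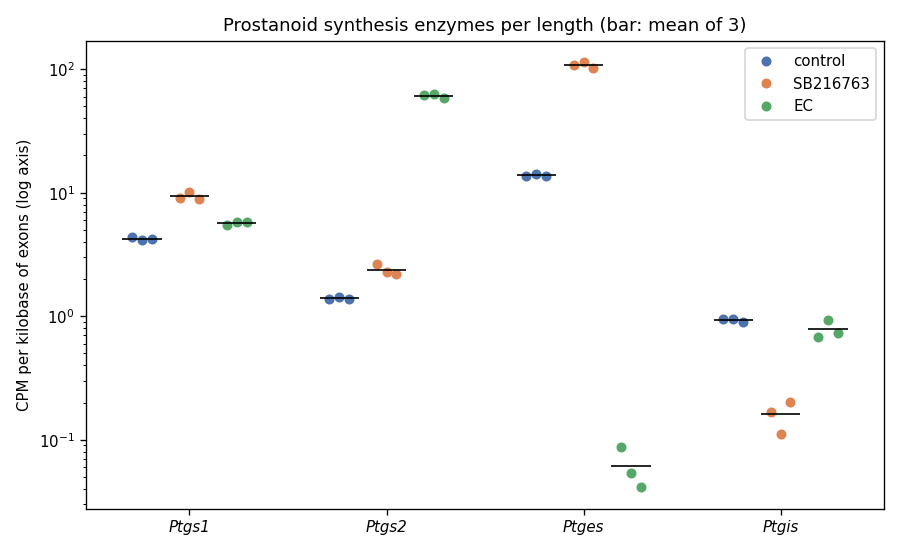
CPM per kilobase of merged exons (y axis, log scale) of 4 prostanoid enzymes in each library of the control, SB216763, and EC groups, with a bar at the mean of 3. Ptges reaches 109 CPM per kilobase in the treated osteoblasts and 0.061 in ECs, while Ptgs2 is at 61.0 in ECs and 2.37 in the treated osteoblasts.

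The rest of the prostanoid pathway was a list of 21 genes, chosen with earlier results of these data known, of which 14 were tested. With SB216763, 5 were higher and 4 lower at an adjusted p under 0.01, where 32.9% and 32.0% of all genes tested were, and 1 and 2 of them passed the fold threshold, where 3.81% and 5.84% did. The share called was close to that of all genes, and the median log2 fold change was -0.15 against 0.01 over all genes tested. Pla2g4a, the phospholipase that frees arachidonic acid, was at 43.9 ± 2.70 CPM in controls and 63.9 ± 0.814 CPM with SB216763 (SD, n = 3), which is 0.54 on the log2 scale (adjusted p = 4.86e-08, edgeR). The exporter Abcc4 went from 26.4 ± 1.19 to 41.8 ± 0.409 CPM. The cytosolic synthase Ptges3 was lower, from 256 ± 16.5 to 193 ± 12.1 CPM, and Ptges2, at 28.4 ± 2.56 and 24.5 ± 1.88 CPM, was not called (adjusted p = 0.0133, edgeR). Tbxas1, the thromboxane synthase, was higher past the threshold, at 0.252, 0.273, and 0.347 CPM in the controls and 1.46, 1.62, and 1.25 CPM after treatment. Prxl2b, a prostaglandin F synthase listed as Fam213b in GENCODE M21, fell from 182 counts over the controls to 4 over the treated libraries. The ratio was 34.0 with a 95% counting interval from 13.1 to 126. Each treated library held between 0 and 3 counts, at or under what a library can show. The treated level and this ratio are therefore uncertain.

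Among the prostanoid receptors, Ptger4, the EP4 receptor for prostaglandin E2, rose from 0.274 ± 0.0909 to 1.08 ± 0.0713 CPM (log2 fold change 1.88, standard error 0.23, adjusted p = 1.65e-06, edgeR). ECs held 8.61 ± 0.625 CPM of it. The EP1 receptor Ptger1 was at 0.386 ± 0.0336 and 0.261 ± 0.108 CPM and was not called, and Ptger2 and Ptger3 held at most 3 counts in any library. Tbxa2r, the thromboxane receptor, fell from 1.76 ± 0.231 to 0.235 ± 0.0678 CPM. The prostaglandin F receptor Ptgfr was the highest of the list's receptors in the osteoblasts, and it fell from 111 ± 3.30 to 65.7 ± 2.62 CPM. The prostacyclin receptor Ptgir was at 0.25 ± 0.116 and 0.347 ± 0.0771 CPM in control and treated osteoblasts (adjusted p = 0.183, edgeR) and at 4.50 ± 0.919 CPM in ECs. Ptgds, the prostaglandin D synthase, had 0 counts in the osteoblasts, and Hpgd, which inactivates prostaglandins, had 0 counts in all 9 libraries, which allows up to between 0.0473 and 0.104 CPM.

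Edn1 (chromosome 13, 42301476 to 42307990), the only endothelin gene with counts here, was at 0.898, 1.57, and 0.972 CPM in the control libraries, from 57, 86, and 28 counts. After SB216763 it was at 0.172, 0.0782, and 0.245 CPM, from 6, 3, and 9 counts. The groups did not overlap, and the difference on the log2 scale was -2.80 (standard error 0.33, adjusted p = 1.17e-06, edgeR). From the summed counts, 171 and 18, the ratio of control to treated was 7.10 with a 95% counting interval from 4.36 to 12.3. ECs held 459.5, 457, and 437 CPM, above the controls by 8.60 on the log2 scale (standard error 0.12, adjusted p = 9.47e-19). Treated osteoblasts differed from ECs by -11.40 on that scale. Edn2 and Edn3 had 0 counts in every library.

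Set against the 10 endothelial markers, the osteoblast level of Edn1 went from above their range into it. The controls held 0.254% of the EC level of Edn1, where the markers lay between 0.0326% and 0.175%. After SB216763 the share was 0.0366% for Edn1 and between 0.0306% and 0.158% for the markers. Nos3 was at 0.11% and 0.0915% and Ace at 0.0818% and 0.0357% of the EC level in control and treated osteoblasts, within the range of the markers, the treated value of Ace resting on 7 counts. Ptgs2 stood apart from these, at 2.29% and 3.89%. Ace and the markers Tie1, Tek, Emcn, Cldn5, and Erg entered the test only through ECs, so their low shares were fixed by the filter. After treatment, the lowest and highest marker shares, of Tie1 and Tek, rested on 23 and 14 counts. The ranges are a description, and no test is read from them.

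**Figure D3:**
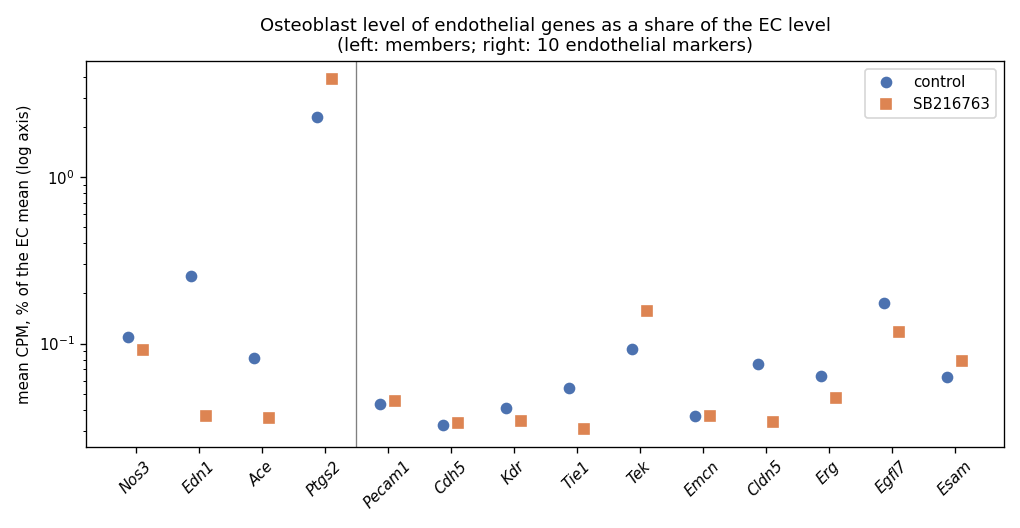
Mean CPM in control and SB216763-treated osteoblasts as a percentage of the mean in ECs (y axis, log scale) for 4 of the 10 genes, left of the line, and 10 endothelial markers, right of it. Edn1 goes from 0.254% to 0.0366%, into the range of the markers, and Ptgs2 is above 2% in both groups.

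Ece1, which cleaves the endothelin precursor (chromosome 4, 137862237 to 137965229), was abundant in all groups. It was at 239.7, 202, and 221 CPM in the controls, at 112, 113, and 117 CPM after SB216763, and at 399, 401, and 416 CPM in ECs. The groups did not overlap. The difference was -0.95 on the log2 scale with treatment (standard error 0.06, adjusted p = 3.24e-10, edgeR). It was 0.88 in ECs against controls (standard error 0.06, adjusted p = 4.98e-10). Treated osteoblasts stood farther from ECs than controls did, with a log2 fold change of -1.83 against ECs. Its relative Ece2 moved the other way with treatment, from 65.4 ± 0.799 to 81.6 ± 1.47 CPM (SD, n = 3). ECs held 21.5 ± 0.685 CPM of Ece2.

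The receptors divided the osteoblasts from the ECs. Ednra (chromosome 8, 77663031 to 77724464), which encodes ETA, was at 46.2, 42.9, and 43.2 CPM in the controls, at 62.9, 61.9, and 59.8 CPM after SB216763, and at 0.0916, 0.0609, and 0.0695 CPM in ECs. The EC values rest on 4, 2, and 3 counts. With treatment the difference on the log2 scale was 0.48 (standard error 0.04, adjusted p = 8.51e-08, edgeR), with no overlap of the groups. Ednrb (chromosome 14, 103814625 to 103844402), which encodes ETB, was at 30.5, 31.3, and 29.3 CPM in ECs. It had 1, 0, and 0 counts in the controls and 0, 0, and 2 counts after SB216763, at or under what the depth can show, so no fold is given between these groups. The ratio of ECs to controls from the summed counts was 4459 with a 95% counting interval from 799.7 to 176151, and that of ECs to treated osteoblasts was 1665, from 461 to 13758. The log2 ratio of Ednra to Ednrb within a library was 11.47 ± 0.66 in the controls, 11.36 ± 1.37 after SB216763, and -8.46 ± 0.24 in ECs (SD, n = 3). With so few Ednrb counts in osteoblasts, the first 2 of these values are set by the 0.5 added to each count, and no test is read from them. With 0.1 or 2 added instead, the difference between ECs and controls, -19.94, became -21.82 or -17.74.

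**Figure D4:**
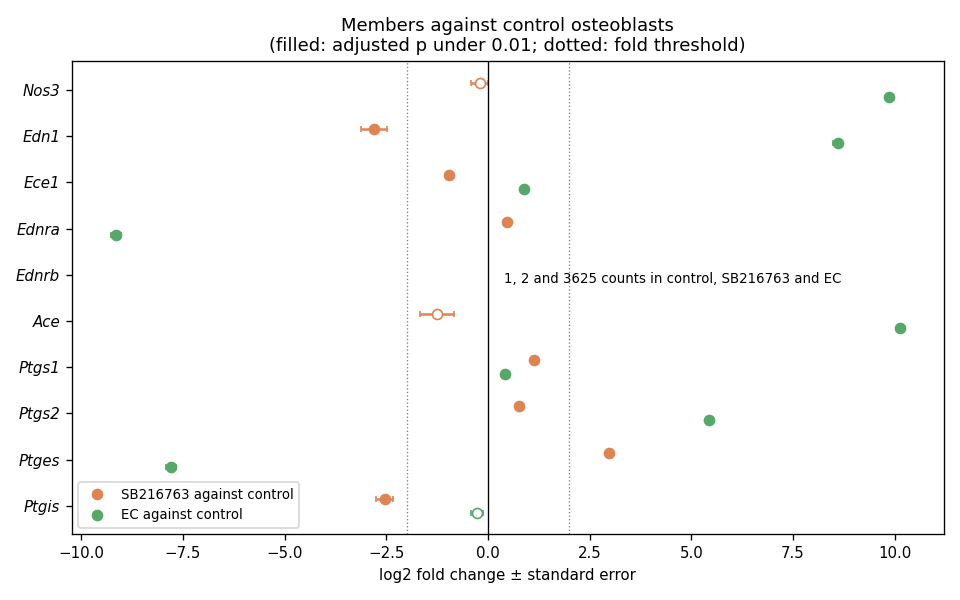
Log2 fold change with its standard error (x axis) of 9 genes in SB216763-treated osteoblasts and in ECs, each against control osteoblasts, with filled points at an adjusted p under 0.01 and dotted lines at the fold threshold. Both comparisons share the controls. Ptges rises 2.97 with SB216763 and is at -7.79 in ECs, and Ednrb is given by its counts because the osteoblasts hold 1 and 2.

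Ace (chromosome 11, 105967945 to 105989964) was at 178, 175, and 187 CPM in ECs. The controls had 11, 9, and 3 counts, or 0.173, 0.164, and 0.104 CPM, and the treated libraries 3, 2, and 2 counts, or 0.086, 0.0521, and 0.0545 CPM. These groups did not overlap, but the difference was not called (adjusted p = 0.0365, edgeR), and the ratio of control to treated was 2.45 with a 95% counting interval from 1.02 to 6.77. The treated libraries were at or under the 3 counts that a library can show, so their level and this ratio are uncertain. From the summed counts, the ratio of ECs to controls was 1153 with an interval from 768 to 1819. No test is given for it, since the EC level alone brought Ace into the fit.

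Among the tested pathway genes, Enpep and Mme, which encode peptidases of the peptide systems around Ace and endothelin, had the largest fold changes with SB216763. Of 18 genes on the list of endothelin and angiotensin genes, which also holds bradykinin genes, 7 were tested. With SB216763, 5 were higher (32.9% of all genes tested), 4 of them past the fold threshold (3.81%). None was lower by edgeR, where 32.0% of all genes were (1, Bdkrb1, had a negative fold change with an unadjusted p under 0.05). The median log2 fold change was 3.08 against 0.01 over all genes tested. The list was chosen with earlier results of these data known, so these shares describe it and test nothing. At an adjusted p under 0.01, 5 of the 7 were lower in ECs than in controls by edgeR (37.9% of all genes tested), and none was higher (39.0%), nor at an unadjusted p under 0.05. Mme, or neprilysin, which degrades endothelin, bradykinin, and angiotensin peptides, went from 53.7, 44.5, and 48.3 CPM in the controls to 3168, 2995, and 2978 CPM after SB216763, against 16.1, 17.0, and 16.1 CPM in ECs. On the log2 scale it rose by 5.96 (standard error 0.08, adjusted p = 1.24e-17, edgeR), a 62.3-fold increase. Agt, the angiotensinogen gene, went from 5.75, 5.21, and 5.07 CPM to 78.6, 82.0, and 74.6 CPM (log2 fold change 3.86, standard error 0.06, adjusted p = 6.67e-17, edgeR). It had 3, 4, and 3 counts in the EC libraries. In both genes the treated libraries stood above all others.

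Enpep, the aminopeptidase that trims angiotensin II, had 8 counts over the controls and 642 over the treated libraries, a ratio of 107 with a 95% counting interval from 54.2 to 249.9. Bdkrb2, the B2 bradykinin receptor, rose from 9 counts to 59, a ratio of 8.77 with an interval from 4.32 to 20.1. Bdkrb1, the B1 receptor, was at 0.411 ± 0.0467 and 0.207 ± 0.102 CPM and was not called (adjusted p = 0.0392, edgeR). Ren1, Agtr1b, and Agtr2 held between 0 and 1 counts in each osteoblast library. Agtr1a held 21 counts over the controls and 1 over the treated libraries and was not tested. Its control libraries ranged from 0 to 14 counts, and the groups overlapped.

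Nos3 (chromosome 5, 24364810 to 24384474) was at 458, 435, and 473 CPM in ECs. It was at 0.457, 0.455, and 0.59 CPM in the controls, from 29, 25, and 17 counts, and at 0.401, 0.521, and 0.327 CPM after SB216763, from 14, 20, and 12 counts. The osteoblast groups overlapped, and a difference was not detectable at this depth (log2 fold change -0.21, standard error 0.22). Across the 19 alternative settings this value stayed between -0.41 and -3.29e-03, and the adjusted p stayed above 0.01. On the log2 scale, ECs were above controls by 9.87 (standard error 0.09, adjusted p = 2.28e-20, edgeR). On GRCm38, 25.2% of the exon bases of Nos3 are shared with the antisense gene Gm15587 and 7.12% with Atg9b, and the strand setting of the counting is not given in the sources used here, so reads of these genes cannot be told apart. The same holds for smaller antisense overlaps of Ptgis (6.08% of exon bases), Ace (5.58%), Ptgs1 (3.81%), Ednra (1.66%), and Edn1 (1.64%).

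Around Nos3, the nitric oxide list, also chosen with earlier results of these data known, held 22 genes, of which 15 were tested. With SB216763, 8 were higher and 5 lower, where 32.9% and 32.0% of all genes tested were. The fold threshold was passed by 1 and 2 of them, where 3.81% and 5.84% of all genes passed it, with a median log2 fold change of 0.32 against 0.01 over all genes tested. Gch1, the rate-limiting enzyme for tetrahydrobiopterin, the cofactor of the nitric oxide synthases, went from 6, 7, and 2 counts to 26, 51, and 40 counts, and was at 40.6 ± 2.45 CPM in ECs. The ratio of treated to control was 10.4 with a 95% counting interval from 6.08 to 19.2. Pts and Spr, the next enzymes of that synthesis, were higher too, with log2 fold changes of 0.95 and 0.44 (adjusted p = 2.21e-10 and 1.77e-06, edgeR). Ddah1, which breaks down an endogenous inhibitor of nitric oxide synthases, fell from 49.5, 54.9, and 53.8 CPM to 8.06, 8.47, and 6.89 CPM (log2 fold change -2.75, standard error 0.07, adjusted p = 5.03e-15, edgeR), while its relative Ddah2 rose from 55.5 ± 5.04 to 86.0 ± 5.83 CPM. ECs were above both osteoblast groups in both, at 138 ± 0.96 and 115 ± 4.43 CPM.

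Of the other nitric oxide synthases, Nos1 fell from 79, 55, and 26 counts in the controls to 4, 4, and 2 counts after SB216763 (log2 fold change -3.53, standard error 0.29, adjusted p = 1.57e-08, edgeR) and was at 11.5 ± 0.185 CPM in ECs. Nos2, the inducible form, held 16, 2, and 22 counts over the control, treated, and EC libraries and was not tested. Slc7a1, the arginine transporter, fell from 305 ± 30.5 to 104 ± 2.47 CPM (SD, n = 3). The subunits of the nitric oxide receptor were near 0, with at most 2 counts over any group for Gucy1a1 and Gucy1b1, and 0, 1, and 12 counts over the control, treated, and EC libraries for Gucy1a2.

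**Figure D5:**
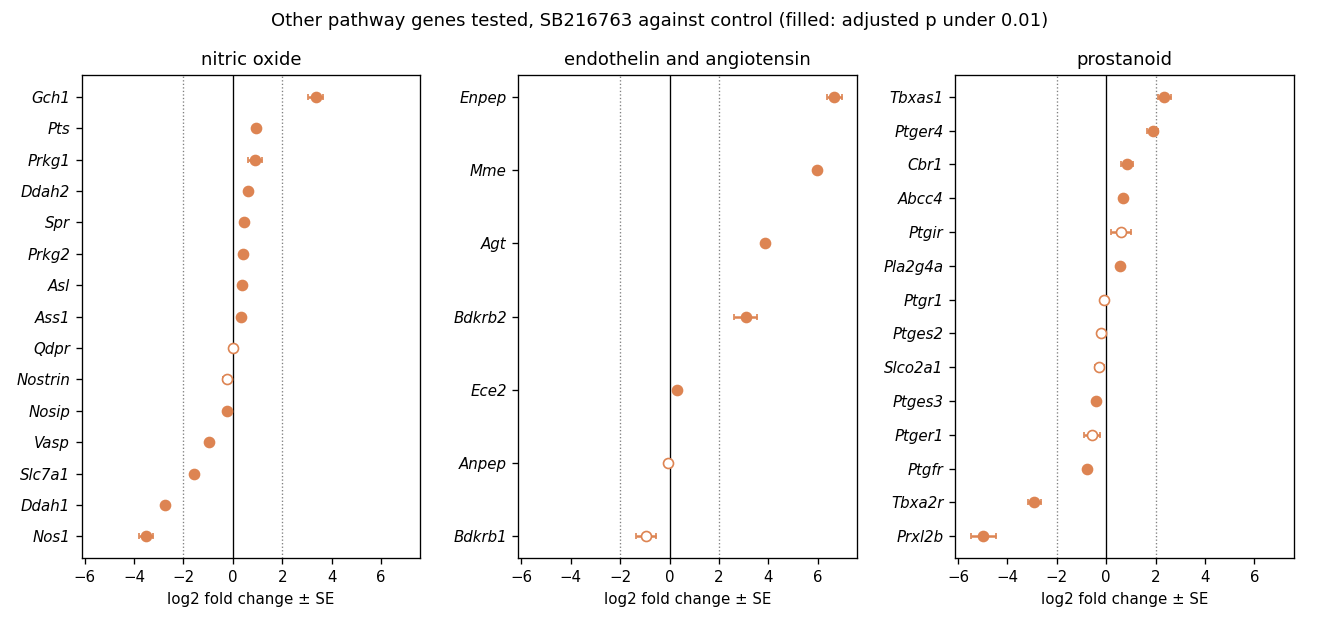
Log2 fold change with its standard error (x axis) between SB216763-treated and control osteoblasts for the 36 of 61 other pathway genes that were tested, in 3 lists, with filled points at an adjusted p under 0.01 and dotted lines at the fold threshold. Enpep, Mme, and Agt stand to the right of all others, and Prxl2b, with 4 counts after treatment, is farthest to the left.

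In the comparisons with ECs, Ednrb and Ace had to differ, since only their EC level brought them into the test, and they are left out of the counts that follow. The shares of all genes tested still include such genes. Of the other 8 genes, 7 differed between ECs and control osteoblasts at an adjusted p under 0.01, where 76.9% of the genes tested did. Nos3, Edn1, Ptgs2, Ece1, and Ptgs1 were higher in ECs (39.0% of genes tested), Ednra and Ptges were lower (37.9%), and Ptgis was not called. The fold threshold was passed by 5, where 23.4% of genes tested passed it, with Nos3, Edn1, and Ptgs2 higher in ECs (13.5%) and Ednra and Ptges lower (9.87%). Treated osteoblasts and ECs differed in all 8, where 78.6% of genes tested did. Ednra, Ptges, and Ptgs1 were higher in the treated cells (38.3%), and Nos3, Edn1, Ece1, Ptgs2, and Ptgis were lower (40.3%). The fold threshold was passed by 6 of them, where 25.3% of genes tested passed it, with Ednra and Ptges higher (10.3%) and Nos3, Edn1, Ptgs2, and Ptgis lower (15.0%). Both comparisons of osteoblasts with ECs share the EC libraries, and the 2 comparisons with controls share the controls. Ednra, Ece1, Edn1, Ptgs1, Ptgs2, and Ptges were called in each of the 3 comparisons. Single comparisons called 64.9%, 76.9%, and 78.6% of all genes tested, and the share called in all 3 was not computed. The neighbours that were not called different were control and treated osteoblasts for Nos3, Ednrb, and Ace, and control osteoblasts and ECs for Ptgis.

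The genes most like the 3 members past the fold threshold were found over the 9 libraries, by the root mean square difference of log2 CPM after each gene was centred on its mean. For Ptges they were Igfbp5, Edil3, and Nbl1, with differences of 0.32, 0.38, and 0.44. Igfbp5 was at 77.1, 398, and 0.263 CPM on average in control osteoblasts, treated osteoblasts, and ECs. For Ptgis they included Gm45819 and Poc1a, with differences of 0.16 and 0.19, and Gm45819 was at 5.57, 0.987, and 5.01 CPM. For Edn1 they were Ptprb, Adgrf5, and Serpinb6b, with differences of 0.36, 0.49, and 0.57, and Ptprb was at 2.62, 0.44, and 777 CPM.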

How the data were processed

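The 9 RNA-Seq libraries were 3 each of control osteoblasts, osteoblasts given SB216763, and ECs. Read alignment and gene counts were made by the authors with STAR. The deposited values are raw counts of 50686 genes, with no normalization. The submitters' processing notes name STAR 2.5.3a and GRCm38. The annotation and strand setting are not given in the sources used here. The protocol text names SB216763 for every sample, so groups were taken from the titles. Identifiers were matched to symbols without their version.

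Genes kept by filterByExpr were tested in R 4.3.3 with edgeR 4.0.16, by TMM normalization and the quasi-likelihood test on one fit of all 9 libraries, with Benjamini-Hochberg adjustment over the 15531 genes tested. A gene was called at an FDR under 0.01, and the fold threshold was 2 on the log2 scale, the study's cutoffs. Fold changes used a prior count of 0.125, and standard errors came from the fold change and the F statistic. Ratios within a library used counts plus 0.5. Counting intervals are exact binomial intervals of summed counts and cover counting error only. The test was tried on simulated counts. The depth was between 30990107 and 68946333 counts per library.

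The 10 genes, the lists, and the markers were chosen with earlier results of these data known. The text names the 10 genes, the pathway genes past the fold threshold (at most 4 in each direction of each list), genes that pair with a member, and for each member past that threshold the 3 genes nearest in profile, of which 1 is not reported here. Other pathway genes named, Pts, Spr, Ddah2, Slc7a1, Abcc4, Ptges2, Ptges3, Ptgfr, Bdkrb1, Ren1, Agtr1b, Agtr2, and Gucy1a2, were added after their values were seen. Promoters are from RefSeq on GRCm38.p6. DESeq2 1.42.0 and limma-voom (limma 3.58.1) were tried as alternatives, as were other scalings and filters, fits of 2 groups, a lower fold threshold, another prior count, the replicate number as a block, other pseudocounts, and leaving out each library.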

Additional observations from a re-analysis of the deposited data

How the results depend on the processing

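The number of the 10 genes called stayed at 7, 9, and 10 in the comparisons of SB216763 with control, EC with control, and SB216763 with EC under all 19 alternatives, counts that include Ednrb and Ace, and no log2 fold change of a member changed its direction or its side of the adjusted p limit. The lower fold threshold and the other prior count leave the p-values as they are, so these settings could not change a call. Ednrb was left out between the osteoblast groups. Ace had no value there where only those groups were fitted, since it then failed the filter. The count past the fold threshold was between 3 and 4, 7 and 7, and 8 and 9, the upper values with the threshold at 1 on the log2 scale, which Ptgs1 passed for SB216763 with control and Ece1 for SB216763 with EC. For the other pathway genes, the count past that threshold was between 10 and 12 for SB216763 with control, between 16 and 24 for EC with control, and between 17 and 25 for SB216763 with EC, the upper values of the last 2 with the threshold at 1 on the log2 scale. With each library left out, the log2 fold change with SB216763 was between -3.21 and -2.46 for Edn1 and between -2.74 and -2.33 for Ptgis. Scaling by library size only moved the median of all genes in that comparison from 0.01 to 0.22, and all members kept their direction. The difference of the Ednra to Ednrb log2 ratio between treated and control osteoblasts, -0.11, changed sign as single libraries were left out, with values between -0.53 and 0.68, since Ednrb had 1 and 2 counts in these groups. It was 0.26 without control replicate 2 and 0.68 without SB216763 replicate 3.

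The replicate numbers appear in every group, but the study does not describe pairs. The deviations of same-numbered libraries correlated at 0.0689 for SB216763 and control, -1.76e-04 for EC and control, and -0.0173 for SB216763 and EC. For SB216763 and control, replicates 1, 2, and 3 gave 0.00286, 0.123, and 0.0810. Whether same-numbered libraries were handled together is not stated, and these correlations cannot decide it. With the replicate block, 1482, 3634, and 3936 genes passed the fold threshold in the 3 comparisons, against 1499, 3635, and 3933 without it, and the block changed no call of a member. At the depth of these libraries, Nos3, Ednrb, and Ace had between 0 and 29 counts in each osteoblast library, so small differences between these groups are not detectable.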
